A study of Mus musculus with 4 samples.

Results

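A set of 10 genes, detected in wild-type mouse plasma cells and nearly absent from VQ myeloma cells, was followed through 4 single-cell RNA libraries: Slpi, Prg2, Spon1, Hsd11b1, St8sia6, Chst1, Serpina3g, Acss1, Pitpnc1 and Arhgdib. They are 10 of the 24421 genes in the count tables and were selected on their summed UMI counts, which were lower in VQ than in wild-type bone marrow. For them that contrast is therefore given as a description with no test, and tests of them are given for the VQ lymph node against VQ marrow and for 2 kinds of cell within VQ marrow. Cells were sorted as CD138+ B220-, the surface profile of plasma cells. VQ-D2 myeloma was sampled from bone marrow (VQ_BM, 2 libraries) and from a lymph node (VQ_LN, 1 library), and age-matched control bone marrow gave 1 wild-type library (WT_BM), all on C57/BL6. The VQ genotype is given as V{kappa}*MYC with Nras LSL Q61R/+ and IgG1-Cre, and the VQ cells are labelled as donor-derived and the animals as recipients, with multiple myeloma as the disease. The conditional Nras allele depends on Cre, and IgG1-Cre is known to act in B cells that have switched towards IgG1 in germinal centres. The labels do not say whether the VQ_BM libraries or the lymph node came from separate animals.

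Bone marrow plasma cells are the long-lived end stage of the B cell lineage and spend most of their transcripts on antibody. They are recognised by surface syndecan (CD138), by the secretory regulator Xbp1, and by Jchain, the small chain that joins IgM and IgA into polymers. Besides antibody they make a set of other secreted proteins and enzymes. Slpi and Serpina3g encode inhibitors of serine or cysteine proteases, and Prg2 encodes a basic granule protein best known from eosinophils. Spon1 encodes an extracellular matrix protein. Hsd11b1 encodes the reductase that regenerates active glucocorticoid inside cells, St8sia6 a sialyltransferase and Chst1 a sulfotransferase of carbohydrate chains. Acss1 encodes the mitochondrial enzyme that makes acetyl-CoA from acetate, Pitpnc1 a phosphatidylinositol transfer protein and Arhgdib a regulator of cytoskeletal signalling found mainly in blood cells.

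The libraries held 781 cells and 2668047 UMIs (unique molecular identifiers, each standing for 1 captured transcript), with library medians of 2021 to 4386 UMIs per cell. No cell barcode was shared between libraries. Cells were divided by the share of their UMIs that came from Jchain, at 5%. At or above it were 19 of 245 and 18 of 188 VQ_BM cells, 0 of 185 VQ_LN cells (which allows a share of up to 1.62%) and 106 of 163 WT_BM cells. Only 4 cells lay at 4 to 5%, where 2 VQ_BM replicate 1 cells held 11 UMIs of the list and 2 WT_BM cells held 5. At 5 to 6%, 1 VQ_BM replicate 1 cell held 9, 2 of replicate 2 held 5 and 3 WT_BM cells held 42. Plasma cell markers were present on both sides of that line: 15 of 15 had a UMI in the VQ_BM cells under 5%, 14 of 15 in the VQ_LN cells and 15 of 15 in the WT_BM cells at or above 5%. Of 10 B cell markers, 3 had a UMI in VQ_LN (559 CPM summed), 7 in VQ_BM under 5% (437 CPM) and 7 in WT_BM at or above 5% (1123 CPM), and Pax5 and Cd22 were among those at 0 in all 3. In the sorted WT_BM library, 22 cells under 5% Jchain carried at least 2 markers of B cell precursors. They serve below as cells in which plasma cell genes should be low, though 14 of 15 plasma cell markers had a UMI in them (2801 CPM summed, against 221076 CPM in WT_BM at or above 5%). Those sums include Jchain, which defines the classes and made 1186 and 203581 CPM of them. No doublet caller was run, and of the cells at or above 5% Jchain 0 in VQ_BM and 1 in WT_BM carried at least 3 markers of another type. Levels are given as CPM (UMIs of the gene over all UMIs of the cells summed, times 1e+06), with exact 95% Poisson intervals, and shares of cells with exact Clopper-Pearson 95% intervals. Both cover counting error only. Where a count was 0, the limit given is instead 3 over the number of cells or UMIs. For 0 of 185 cells this is 1.62%, where the exact interval ends at 1.97%.

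Of the list, 5 genes lie on 1 chromosome: Slpi, Prg2, St8sia6, Chst1 and Acss1 are on mouse chromosome 2, at scattered positions. In the GENCODE vM21 annotation of GRCm38 all 10 are protein-coding genes. Slpi spans chromosome 2, 164354070 to 164389095 on the minus strand, and Prg2 chromosome 2, 84980461 to 84983632 on the plus strand. RefSeq promoters (GRCm38.p6, 250 bases before to 50 after a gene start) were at hand for 8 of the 10 genes, as 10 promoters. The 3 shown here belong to Slpi, the member with the most UMIs in WT_BM cells, to St8sia6, the member with no UMI in any VQ cell under 5% Jchain, and to Serpina3g, a member known to respond to cytokines. They lie at chr2:164356458-164356757 (minus strand), chr2:13793471-13793770 (minus strand) and chr12:104235897-104236196 (plus strand). Capitals mark matches, on either strand, to the motifs searched.
Slpi: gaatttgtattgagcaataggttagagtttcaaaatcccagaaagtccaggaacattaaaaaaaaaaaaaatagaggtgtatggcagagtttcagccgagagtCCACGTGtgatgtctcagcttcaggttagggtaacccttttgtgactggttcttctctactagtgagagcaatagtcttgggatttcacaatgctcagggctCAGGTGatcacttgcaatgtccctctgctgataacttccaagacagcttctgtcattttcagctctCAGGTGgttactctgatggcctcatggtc
St8sia6: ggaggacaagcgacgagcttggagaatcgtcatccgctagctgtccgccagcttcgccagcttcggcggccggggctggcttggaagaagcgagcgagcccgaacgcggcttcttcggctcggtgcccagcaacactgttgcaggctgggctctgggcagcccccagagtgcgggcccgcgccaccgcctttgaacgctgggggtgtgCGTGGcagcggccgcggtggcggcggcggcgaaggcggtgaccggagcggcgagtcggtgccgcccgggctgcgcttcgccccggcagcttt
Serpina3g: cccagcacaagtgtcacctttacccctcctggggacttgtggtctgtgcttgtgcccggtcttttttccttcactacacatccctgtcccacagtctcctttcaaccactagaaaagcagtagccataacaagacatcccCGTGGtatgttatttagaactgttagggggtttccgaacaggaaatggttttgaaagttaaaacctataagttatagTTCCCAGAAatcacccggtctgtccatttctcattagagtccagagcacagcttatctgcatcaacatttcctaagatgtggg

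The motifs were searched on both strands of the 10 promoters and of 32851 RefSeq promoters of the same length. The core of the ER stress element, CCACG, bound in its full form by XBP1, was in 5 of the 10, those of Slpi, St8sia6, Serpina3g, Hsd11b1 and Acss1, and in 32.8% of all promoters. In the Slpi promoter CCACG overlapped the MYC E-box CACGTG in the run CCACGTG. Slpi was the single listed gene with a CACGTG, which 7.15% of all promoters held. The Slpi promoter also held 2 matches to the E2A-type E-box CACCTG, found in 1 Arhgdib promoter too and in 20.2% of all promoters. The glucocorticoid half-site AGAACA was in 1 promoter each of Arhgdib and Pitpnc1 (19.0% of all), the STAT element TTCNNNGAA in that of Serpina3g (8.30%) and the interferon element GAAANNGAA in that of Acss1 (8.56%). The ETS-IRF element GGAANNGAA (8.24%) and the octamer ATGCAAAT (1.74%) were in none of the 10. These are letter matches within a window and say nothing of binding.

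In WT_BM cells at or above 5% Jchain every listed gene was detected, but in very different shares of cells. Slpi had a UMI in 84 of 106 cells (79.2%, interval 70.3 to 86.5) and Prg2 in 75 (70.8%). Arhgdib was found in 56 cells (52.8%), Chst1 in 42 (39.6%), Spon1 in 30 (28.3%) and St8sia6 in 27 (25.5%). Serpina3g was found in 24 cells, Hsd11b1 in 22, Pitpnc1 in 12 and Acss1 in 11. Together the genes made 10049 CPM. Slpi was uneven from cell to cell: its median was 7 UMIs in cells that had any, a single cell held 180 of the 1291 UMIs, and the 10 highest cells held 51.2%. Arhgdib was the most even of those with over 50 UMIs, with at most 5 UMIs in a cell and 33.9% in its 10 highest.

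The protease inhibitor Slpi was the clearest example of the list. It had 6 and 3 UMIs in the VQ_BM replicate 1 and replicate 2 cells under 5% Jchain (5.74 and 6.75 CPM), 1 UMI in the VQ_LN cells (1.24 CPM) and 1291 UMIs in the WT_BM cells at or above 5% (6328 CPM). It was thus 1047-fold lower in VQ_BM cells under 5% (interval 550 to 2296) and 5086-fold lower in VQ_LN cells (911 to 201057) than in these WT_BM cells. Serpina3g, the other inhibitor, had 5 and 1 UMIs in the VQ_BM cells, 0 in VQ_LN and 39 in WT_BM, 47.5-fold lower in VQ_BM (19.9 to 137) and at least 51.2-fold lower in VQ_LN against a floor of 3 counts over that library. Serpina3g is 1 of a family of closely similar neighbouring genes, among which 3′ reads may be divided or shared.

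For the enzymes the direction was the same, but the folds rested on fewer UMIs than for Slpi. St8sia6 had 0 UMIs in both VQ_BM replicates and in VQ_LN, and 36 UMIs (176 CPM) in WT_BM. It was at least 87.6-fold lower in VQ_BM and at least 47.3-fold lower in VQ_LN. Chst1 had 5 and 0 UMIs in VQ_BM, 0 in VQ_LN and 77 in WT_BM, 112-fold lower in VQ_BM (46.2 to 356) and at least 101-fold lower in VQ_LN. Hsd11b1 had 3 and 3 UMIs in VQ_BM, 0 in VQ_LN and 29 in WT_BM, and was 35.3-fold lower in VQ_BM (14.4 to 104). Acss1 had 1 and 0 UMIs in VQ_BM, 0 in VQ_LN and 13 in WT_BM, 94.9-fold lower in VQ_BM with an interval of 14.3 to 4034. The lipid carrier Pitpnc1 had 1 and 1 UMIs in VQ_BM, 0 in VQ_LN and 12 in WT_BM, 43.8-fold lower in VQ_BM (9.75 to 403).

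Spon1, the matrix protein, was the only member with more than 1 UMI in the lymph node. It had 3 and 1 UMIs in the VQ_BM replicates, 3 in VQ_LN and 56 in WT_BM. It was 102-fold lower in VQ_BM (37.8 to 388) and 73.5-fold lower in VQ_LN (23.9 to 367). All 10 members were at least 4-fold lower in VQ_BM cells under 5% than in WT_BM cells at or above 5%, as were 3.49% of the 9301 genes with at least 10 UMIs in these cells, and in VQ_LN all 10 were, as were 3.59% of 8352 genes. Nothing is read from these counts, since this contrast chose the list. The 185 VQ_LN cells held 4 UMIs of the list in all (4.98 CPM), against 311 and 85.5 CPM in the VQ_BM replicates.

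**Figure D1:**
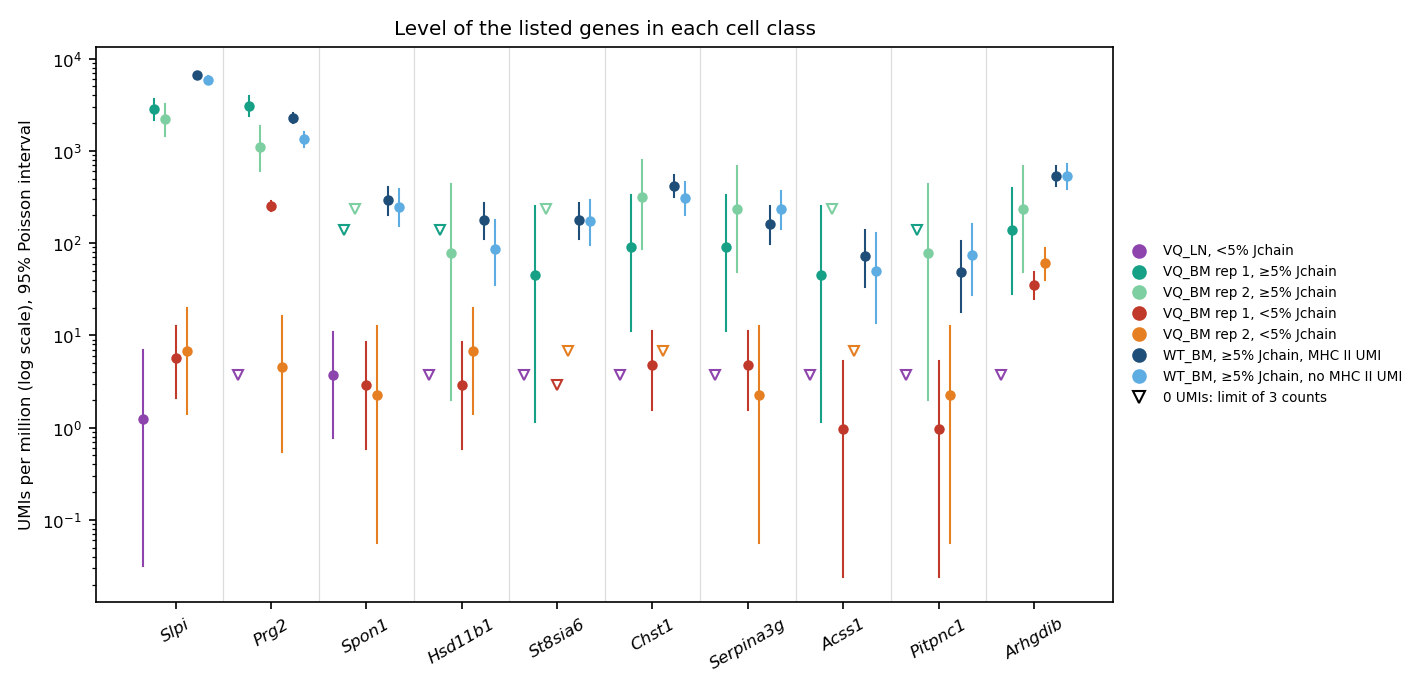
Level of each listed gene (CPM, log scale) in VQ_LN cells, VQ_BM cells at or above and under 5% Jchain and WT_BM cells at or above 5% with and without a UMI of H2-Aa or H2-Ab1. Dots are sums over the cells of a library, lines are 95% Poisson intervals and open triangles mark the limit of 3 counts where a gene had 0 UMIs; Slpi lies at 2834 and 2201 CPM in VQ_BM cells at or above 5%, at 5.74 and 6.75 CPM in those under 5% and at 6641 and 5846 CPM in the WT_BM cells.

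Prg2 and Arhgdib had the most UMIs of the list in VQ_BM cells under 5%. Cells that carried at least 3 markers of another type, or Epx and Prg3, held 254 of the 266 Prg2 UMIs and 43 of the 64 Arhgdib UMIs. Such cells also held 4 of the 6 Hsd11b1 UMIs, 3 of the 5 Chst1 UMIs and the single Acss1 UMI, but 2 of the 9 Slpi UMIs and 0 of the 4 Spon1 UMIs. In the remaining cells at 2 to 5% Jchain, Slpi had 2 UMIs in replicate 1 and 3 in replicate 2. Prg2 had 264 UMIs (253 CPM) in replicate 1 and 2 UMIs (4.50 CPM) in replicate 2 of the VQ_BM cells under 5%, 0 in VQ_LN and 388 (1902 CPM) in WT_BM at or above 5%. The VQ_BM replicates thus lay far apart. A single cell of replicate 1 held 252 of the 264, within 2224 UMIs, together with 10 UMIs of Epx and 9 of Prg3, both genes of eosinophil granules. It had Jchain at 0.18% of UMIs and no UMI of the eosinophil genes Il5ra, Ear1, Ear2, Ear6, Siglecf and Ccr3. Over all VQ_BM cells under 5%, Prg2 was 10.6-fold lower than in WT_BM (9.09 to 12.5). In replicate 2, which had no such cell, it was 423-fold lower (116 to 3502).

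Arhgdib had 37 and 27 UMIs in VQ_BM, 0 in VQ_LN and 109 in WT_BM, 12.4-fold lower in VQ_BM (9.05 to 17.2) and at least 143-fold lower in VQ_LN. In replicate 2, 4 cells with at least 3 neutrophil markers held 23 of the 27 UMIs. In replicate 1, 2 such cells held 9 UMIs, 7 cells with at least 3 T cell markers held 8, the cell with Epx and Prg3 held 2, and the 213 cells under 2% Jchain with fewer than 3 such markers held 18. The summed neutrophil markers stood at 1.24 CPM in VQ_LN, where 8 of 9 were at 0, and at 1004 and 2914 CPM in the VQ_BM cells under 5%, with 9 and 8 of 9 markers detected. In WT_BM at or above 5% they stood at 63.7 CPM, with 5 of 9 at 0.

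Without those cells, and without cells at 2 to 5% Jchain, the lymph node and marrow levels came closer. In VQ_BM the further cells at 2 to 5% numbered 3 and 2 and held 12 and 4 UMIs of the list. Of cells under 2% Jchain with fewer than 3 markers of another type and without Epx and Prg3 together, 184 VQ_LN cells held 4 UMIs of the list (4.98 CPM, interval 1.36 to 12.8). In VQ_BM, 213 such cells of replicate 1 held 29 UMIs (28.3 CPM, 19.0 to 40.7) and 161 of replicate 2 held 8 (18.3 CPM, 7.88 to 36.0). Of the 29 UMIs in replicate 1, 18 were Arhgdib. In these cells Slpi had 1 UMI in VQ_LN, against 2 and 0 in the VQ_BM replicates, and Prg2 had 0, against 3 and 1.

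**Figure D2:**
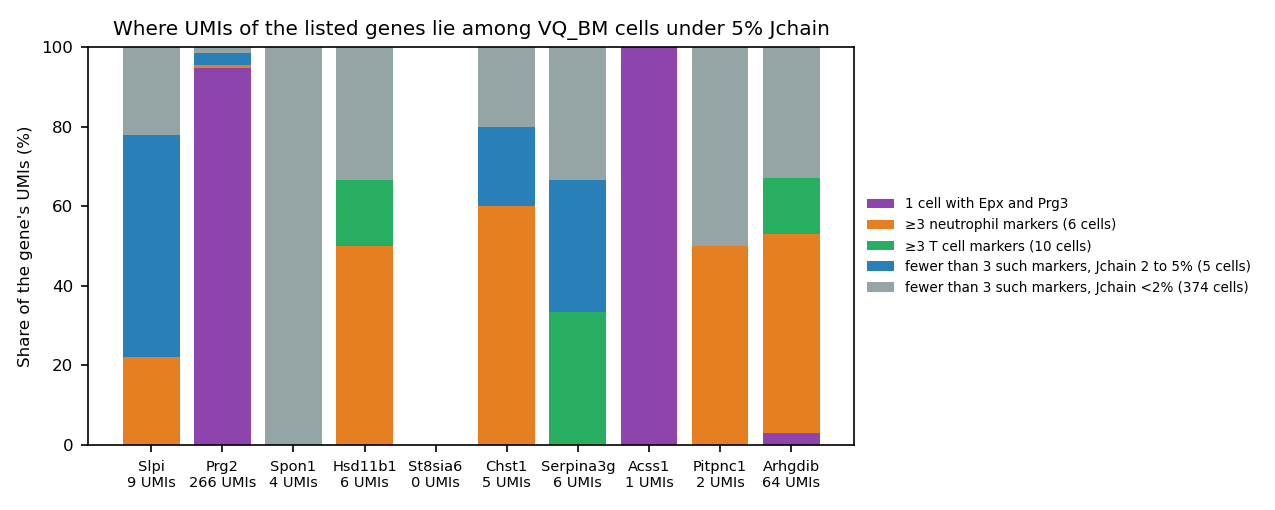
Share of each listed gene's UMIs (%) by kind of cell among the 396 VQ_BM cells under 5% Jchain, both replicates together, with the gene's UMI total under its name. Nearly all Prg2 UMIs lie in the single cell with Epx and Prg3, and the 6 cells with neutrophil markers hold 32 of the 64 Arhgdib UMIs; St8sia6 has no UMI and no bar.

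The lymph node was then set against VQ bone marrow, both restricted to cells under 5% Jchain, in an edgeR quasi-likelihood test over 8286 genes. The low-count filter of this fit also took in the WT_BM sum, where the members are high by selection, and 8 members passed it. Of these, Prg2 and Arhgdib were called lower in VQ_LN. Among all genes 1.27% were called lower and 1.86% higher. The tests took their spread from the VQ_BM pair alone and assumed that the single lymph node library varies like it. The spread was shared fully over genes (infinite prior degrees of freedom). A gene's own spread between those 2 libraries therefore did not set its p, and the shared spread may be technical. Arhgdib had 0 UMIs in VQ_LN, against 37 and 27 in VQ_BM, at least 11.5-fold lower (edgeR adjusted p = 4.55e-11). It remained called when cells with at least 3 markers of B cell precursors, T cells, neutrophils or eosinophils were left out (edgeR adjusted p = 0.00287). It was not called by DESeq2 (adjusted p = 0.0768). With those cells and the Epx and Prg3 cell left out, the bound stood at 3.83-fold, on 21 UMIs in VQ_BM. Some cells kept in had 2 T cell or 2 macrophage markers and held 3 of these UMIs each, as did a cell with none of either.

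Prg2 was at least 47.8-fold lower in VQ_LN (edgeR adjusted p = 1.32e-38), a value that rested on 1 cell. Without the cell that carried Epx and Prg3, an alternative chosen after seeing the data, the bound was 2.52-fold and edgeR adjusted p = 0.0240. DESeq2 gave an adjusted p of 1 with that cell included. The other members were not called, with too few UMIs in these cells to read this as no difference. St8sia6 had 0 UMIs in VQ_BM and VQ_LN alike, so nothing was tested for it. Slpi differed by -2.08 on the log2 scale (SE 0.92) and Spon1 by 0.48 (SE 1.06), with 1 and 3 UMIs in VQ_LN. With all cells of each library included, whatever their Jchain, Slpi was called lower in VQ_LN too (log2 fold change -5.48, edgeR adjusted p = 0.000236), since the VQ_BM cells at or above 5% Jchain then entered. Acss1 and Pitpnc1 were too low to be tested.

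The 37 VQ_BM cells at or above 5% Jchain carried Slpi and Prg2 at levels within a few fold of wild type. Slpi had 62 and 28 UMIs in these cells of replicates 1 and 2 (2834 and 2201 CPM), against 6 and 3 UMIs in the far larger number of cells under 5% (5.74 and 6.75 CPM). The values did not overlap, which with 2 libraries is a description only. These 37 cells held 2.05% and 2.78% of the UMIs of their libraries, and 91.2% and 90.3% of the Slpi UMIs. Slpi was higher in them by 8.55 on the log2 scale (SE 0.47, library as a block), where the median of all 4743 genes tested was -0.74. No p is given for Slpi, which entered this fit through the cells where it was high. Prg2 had 67 and 14 UMIs at or above 5% (3062 and 1101 CPM), against 264 and 2 UMIs under 5% (253 and 4.50 CPM), and was higher by 4.26 (SE 0.38, edgeR adjusted p = 4.67e-26). Without the cell with Epx and Prg3 that difference was 7.91.

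Slpi, Prg2 and Arhgdib passed the low-count filter here, and of all genes 1.81% were called higher and 3.63% lower. Slpi, at 5.74 and 6.75 CPM under 5%, passed that filter through the cells at or above 5%, where it was high. The number of members called is therefore not set against those shares. This fit had 1 residual degree of freedom, and its spread was again shared fully over genes. Each p therefore rests on that shared spread between 2 libraries, not on the gene's own. Arhgdib, the third, had 3 and 3 UMIs at or above 5% and 37 and 27 under 5%, a difference of 1.72 on the log2 scale (SE 0.97, edgeR adjusted p = 0.361). It was called when cells with at least 3 markers of another type were left out (3.39, edgeR adjusted p = 0.00233). Prg2 was not called when cells under 1000 UMIs were left out (edgeR adjusted p = 0.696), which removed 22 of the 37 cells. Over the alternatives the Slpi difference lay between 6.46 and 9.52 on the log2 scale, given as a description.

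Set against WT_BM cells with the same Jchain share, the 37 VQ_BM cells had less Slpi and no detectable Spon1. Slpi was at 2601 CPM in VQ_BM and 6328 CPM in WT_BM, 2.43-fold lower in VQ_BM (interval 1.964 to 3.05), and in 62.2% (44.8 to 77.5) and 79.2% (70.3 to 86.5) of cells. Prg2 was at 2341 CPM in VQ_BM and 1902 CPM in WT_BM, a ratio of 1.23 with an interval of 0.957 to 1.57 that includes 1. The replicates lay on opposite sides of WT_BM: Prg2 was at 3062 CPM in replicate 1, a ratio of 1.61 (1.22 to 2.09), and at 1101 CPM in replicate 2, a ratio of 0.579 (0.313 to 0.983). Slpi was lower than in WT_BM in both, 2.23-fold in replicate 1 (1.73 to 2.93) and 2.88-fold in replicate 2 (1.98 to 4.34). Spon1 had 0 UMIs in VQ_BM and 56 in WT_BM, at least 3.17-fold lower. Arhgdib had 6 and 109 UMIs, 3.08-fold lower in VQ_BM (1.37 to 8.58), and St8sia6 1 and 36, 6.11-fold lower (1.03 to 248). For Chst1 (6 UMIs in VQ_BM), Serpina3g (5), Hsd11b1, Acss1 and Pitpnc1 (1 each) the intervals of the ratio included 1. Of the 3643 genes with at least 10 UMIs in these cells, 8.43% were at least 4-fold lower, so a fold of that size was common at this depth. The depth of these 37 cells, 34600 UMIs in all, does not resolve differences in these 5 genes. Whether they are donor-derived or recipient plasma cells cannot be told apart from the counts, as the labels call the whole sorted population donor-derived. A UMI of H2-Aa or H2-Ab1 was present in 5 of 19 and 6 of 18 of them, against 56 of 106 WT_BM cells.

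**Figure D3:**
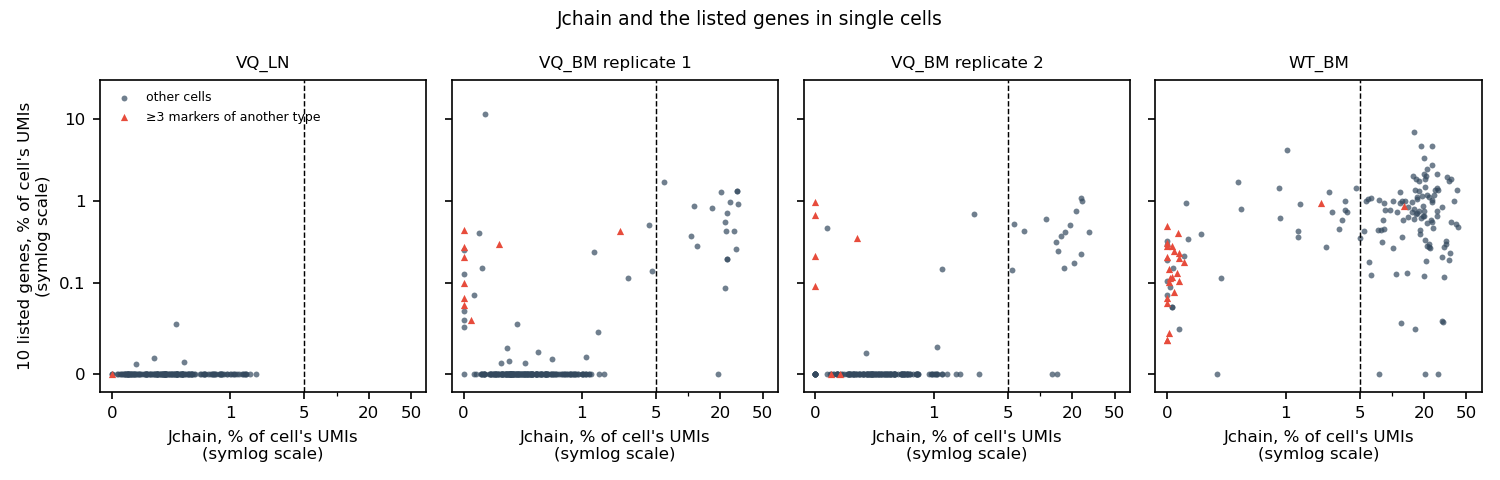
Share of each cell's UMIs from Jchain (x axis) and from the 10 listed genes together (y axis), both on symlog scales in percent, with 1 panel per library; the dashed line is 5% Jchain and triangles are cells with at least 3 markers of B cell precursors, T cells, neutrophils or eosinophils. Most VQ_LN cells lie at 0 for the list, and in VQ_BM the cells at or above 5% Jchain lie mostly above 0 and those under 5% mostly at 0; the high point in replicate 1 is the cell with 252 Prg2 UMIs.

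Within WT_BM, cells with a UMI of H2-Aa or H2-Ab1 (MHC class II, retained on younger plasma cells and lost with maturation) and cells without one both carried the list. The 56 cells with such a UMI had the list at 10793 CPM and the 50 cells without at 8900 CPM. Prg2 was at 2270 CPM in cells with MHC class II and 1334 CPM in cells without, 1.70-fold higher (1.36 to 2.15). Slpi was at 6641 CPM in cells with MHC class II and 5846 CPM in cells without, 1.14-fold higher (1.01 to 1.28), a value that rested on the cell with 180 UMIs. Without that cell, an alternative chosen after seeing the data, Slpi was at 5307 CPM in cells with MHC class II and the ratio was 0.908 (0.805 to 1.02), so its direction turned. The whole list was then at 9432 CPM in cells with MHC class II, against 8900 CPM. Without its own richest cell Prg2 was still 1.47-fold higher (1.17 to 1.87). For the other 8 members the interval of the ratio included 1. None was at least 4-fold lower in the cells with MHC class II, against 0.283% of 3183 genes. There is 1 WT_BM library, so no test over samples is possible, and the cells with MHC class II were deeper, with a median of 2234 UMIs against 1493.

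Several of the listed genes often had a UMI in the same WT_BM cell, and no other set of genes was counted for comparison. At least 3 of the 10 had a UMI in 0 of 185 VQ_LN cells (up to 1.62%), in 8 of 37 VQ_BM cells at or above 5% Jchain (21.6%, 9.83 to 38.2), in 4 of 396 VQ_BM cells under 5% (1.01%, 0.276 to 2.57) and in 73 of 106 WT_BM cells at or above 5% (68.9%, 59.1 to 77.5). Within WT_BM the count was 43 of 56 cells with MHC class II and 30 of 50 without. After thinning each cell to 1000 UMIs it was 30 of 52 (57.7%) and 21 of 35 (60%). After thinning to 500 UMIs it was 12 of 54 (22.2%) and 8 of 46 (17.4%). The direction thus depended on the thinning, and the intervals overlapped in each setting. Median UMIs per cell were 3978 in VQ_LN, 796 in VQ_BM at or above 5%, 3501 in VQ_BM under 5% and 1999 in WT_BM at or above 5%. With every cell thinned to 500 UMIs and shallower cells left out, the counts were 0 of 185 VQ_LN cells, 3 of 34 VQ_BM cells at or above 5% (8.82%, 1.86 to 23.7), 0 of 372 VQ_BM cells under 5% (up to 0.806%) and 20 of 100 WT_BM cells (20%, 12.7 to 29.2). Thinning left out 0, 3, 24 and 6 cells. The interval of the VQ_BM cells at or above 5% then overlapped that of WT_BM, and at this depth most genes are near the level of 1 UMI.

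**Figure D4:**
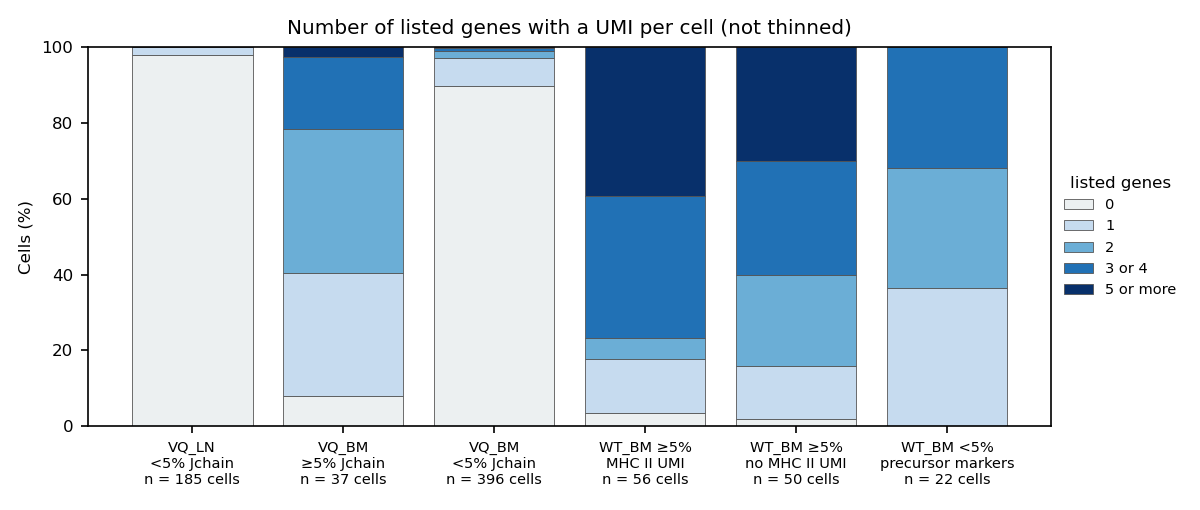
Share of cells (%) by the number of listed genes with at least 1 UMI, without thinning, in VQ_LN cells, VQ_BM cells at or above and under 5% Jchain, WT_BM cells at or above 5% with and without MHC class II UMIs, and WT_BM cells under 5% with B cell precursor markers. Most VQ cells under 5% have none of the 10 genes, while 43 of 56 and 30 of 50 WT_BM cells have at least 3.

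Among the 106 WT_BM cells, Prg2 had a UMI in 78.6% of the 84 cells with Slpi and 40.9% of the 22 cells without. Serpina3g had one in 38.1% of the 42 cells with Chst1 and 12.5% of the 64 without. Hsd11b1 and Pitpnc1 were never seen in the same cell, with 22 and 12 cells. Of the 45 pairs, 36 had the second gene in a larger share of cells with the first than of cells without it, and Pearson correlations of log-normalised values across cells ran from -0.17 to 0.30 with a median of 0.08. The cells share 1 library, and detection moved with depth: cells with 0 or 1 listed gene had a median of 664 UMIs and cells with 6 or more a median of 2520. Jchain did not move in the same way, with medians of 17.5% and 16.4% of UMIs. In sparse counts such correlations are a description only.

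**Figure D5:**
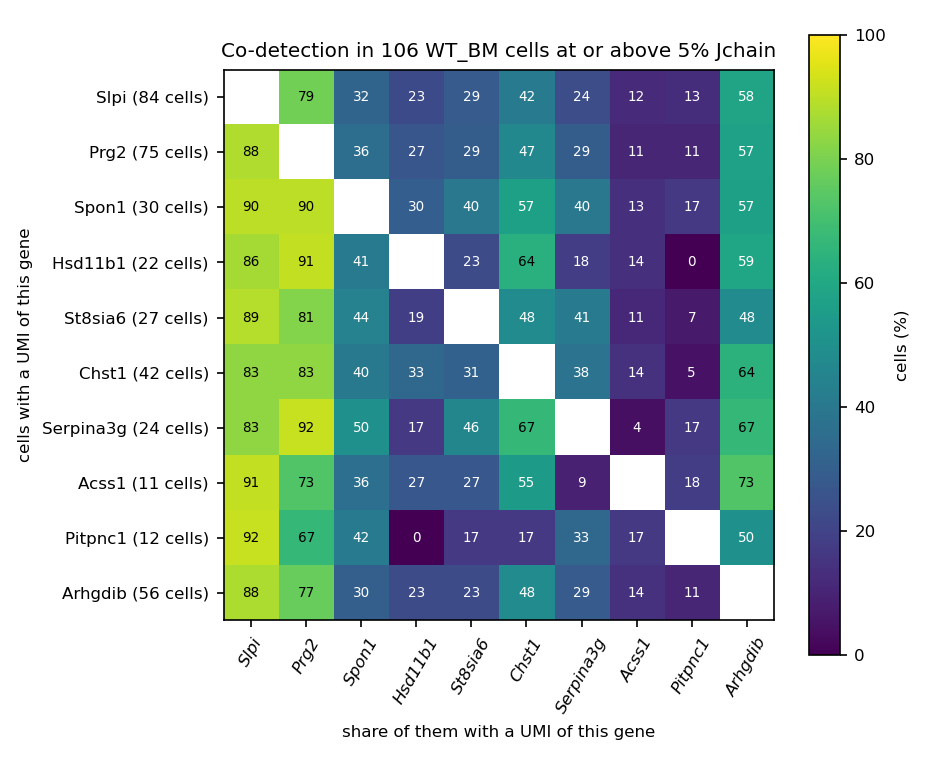
Co-detection in the 106 WT_BM cells at or above 5% Jchain: each square gives the share (%) of cells with a UMI of the row's gene that also had a UMI of the column's gene. Slpi and Prg2 are found in most cells of every row, and the square of Hsd11b1 and Pitpnc1 is at 0.

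The members differed in how they were found in the precursor-marked WT_BM cells. In those 22 cells (median 3315 UMIs) Slpi was 22.4-fold lower than in WT_BM cells at or above 5% (15.1 to 34.8), with 25 UMIs in 3 cells, and Prg2 168-fold lower (30.05 to 6668), with 1 UMI. A single cell held 23 of the 25 Slpi UMIs, so the Slpi fold and its interval rest mainly on that cell. Hsd11b1, St8sia6 and Chst1 had 2, 1 and 2 UMIs and were 6.29-, 15.6- and 16.7-fold lower, while Spon1 and Serpina3g had 0 UMIs and were at least 8.10- and 5.64-fold lower. Arhgdib instead had a UMI in 21 of the 22 cells and was 1.94-fold higher in them (1.46 to 2.59). Acss1 was in 6 of 22 cells and Pitpnc1 in 10 of 22, and the intervals of their ratios included 1. Of VQ_BM cells under 5% (median 3501 UMIs), 0 to 2.53% had a UMI of Slpi, Prg2, Hsd11b1, St8sia6 or Chst1, against 4.55 to 13.6% of these precursor-marked cells. The latter shares rest on 1 to 3 of 22 cells of another library, in which these transcripts are abundant. They set no background level for VQ_BM, and nothing on expression is concluded from either share. Spon1 had a UMI in 0.758% and Serpina3g in 1.26% of VQ_BM cells under 5%, against 0 of the 22, which allows up to 13.6%. Jchain itself was at 5723, 5544 and 5003 CPM in VQ_BM replicates 1 and 2 and VQ_LN under 5%.

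The genes whose profile was most like that of the list, by Pearson correlation of log2(CPM + 10) with the mean of the 10 genes over 7 sums of cells, were Vimp, Cd53, Sod1, Cd74, Slc3a2, Cep85, Etnk1, Oosp1, Glipr1 and Malat1 (0.983 down to 0.965, of 6693 genes). These sums share libraries, and the values are a description. The correlation takes no account of the size of a change. Vimp, the first of them, was at 759 and 798 CPM in the WT_BM cells with and without MHC class II. In the VQ cells under 5% Vimp was at 378 to 410 CPM. Of the members, Chst1 and Slpi lay closest to the mean profile (0.97 each) and Spon1 farthest (0.74), with 0 UMIs in the VQ_BM cells at or above 5%. Oosp1 was at 229 and 236 CPM in the VQ_BM cells at or above 5%, 3.83 to 4.98 CPM in the VQ cells under 5%, and 412 and 374 CPM in the WT_BM cells with and without MHC class II.

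Genes of the same pathways were then read from lists drawn around each member, 151 genes in 9 lists. In VQ_BM cells under 5% against WT_BM cells at or above 5%, where 17.1% of 8286 genes were higher and 12.8% lower, 33 of the 105 list genes tested fell and 15 rose. As for the lymph node, this fit took its spread from the VQ_BM pair alone and assumed that the single WT_BM library varies like it. Of 22 plasma cell identity genes outside the members, 17 fell and 3 rose (median log2 -1.20, all genes 0.20). Mzb1, an ER chaperone of antibody assembly, was at 45.0 and 51.8 CPM in VQ_BM and 4760 CPM in WT_BM (log2 -7.01, SE 0.17), and Ly6a, the surface antigen Sca-1, at 31.6 and 33.8 CPM in VQ_BM and 3422 CPM in WT_BM. Ly6c1 and Ly6c2, related surface antigens, rose by 3.52 and 2.10. Around Hsd11b1, Tsc22d3, a glucocorticoid-induced gene, was at 64.1 and 51.8 CPM in VQ_BM and 275 CPM in WT_BM and fell by 2.56 (SE 0.29), as did Dusp1, and H6pd, which supplies the cofactor of Hsd11b1, rose by 2.35. Of 8 genes tested in that list, 2 fell and 1 rose.

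The remaining lists moved in mixed directions between VQ_BM and WT_BM. Around St8sia6, 3 of 11 sialylation genes fell, led by St3gal1, and St6galnac4 rose. Around Chst1, Tpst2, a protein-tyrosine sulfotransferase, fell and Ndst1 rose, of 11 tested. Around Acss1, 5 of 12 genes of acetyl-CoA supply rose and none fell, among them Dlat, a subunit of pyruvate dehydrogenase, at 105 and 101 CPM in VQ_BM with 0 UMIs in WT_BM. Around Slpi and Serpina3g, 3 of 11 genes rose, with the cathepsin Ctsz at 1134 and 1053 CPM in VQ_BM and 167 CPM in WT_BM, and 2 fell, the cathepsin Ctss and the cystatin Cst3. Srgn, the core of granule proteoglycans, was the 1 gene of 4 that fell in the list around Prg2 and Spon1. Around Pitpnc1, 2 of 13 fell (Pi4ka and Stard3) and Pi4k2b rose. With scaling by library totals the median of all genes was 0.56 in place of 0.20, and 2141 genes rose and 713 fell, against 1420 and 1058 with TMM scaling.

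In the lymph node 6 of the 105 list genes rose against VQ_BM and 2 fell, where 1.86% of all genes rose and 1.27% fell. Mzb1 was at 1355 CPM in VQ_LN and 45.0 and 51.8 CPM in VQ_BM (log2 4.87, SE 0.17, edgeR adjusted p = 4.22e-169), and Cd28, a costimulatory receptor of plasma cells, rose by 1.63. Srgn rose by 1.18, Ly6c2 fell by 1.26 and Dusp1 fell by 1.61. The plasma cell identity list had 5 genes that rose and 1 that fell of 22 (median -0.03, all genes -0.02). In VQ_BM cells at or above 5% Jchain against those under 5%, 8 of 77 list genes rose and 5 fell, where 1.81% of all genes rose and 3.63% fell. The 6 plasma cell identity genes that rose included Mzb1 (2057 and 2909 CPM at or above 5%, 45.0 and 51.8 CPM under 5%) and Ly6a (1737 and 1258 CPM, against 31.6 and 33.8 CPM), while Ly6c2 and Fkbp11, an ER folding enzyme, fell by 2.19 and 2.74.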

How the data were processed

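The authors deposited unscaled UMI counts, with cells as rows and genes as columns, made with the Bio-Rad ddSEQ isolator and Illumina SureCell 3′ kit, per the labels' protocols. Per the submitters' processing notes reads were placed on mm10, and the aligner is not given in the sources used here. Immunoglobulin chain genes are not analysed here. The gene list around Arhgdib enters the totals over lists but is not reported here on its own. The members and gene lists were chosen with earlier results of these data known. Named genes are all 10 members, the 10 genes most like them, and the 2 largest called changes in each direction per list and comparison.

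Counts were summed per library and Jchain class (5%) and tested with edgeR 4.0.16 (R 4.3.3; TMM scaling, filterByExpr, quasi-likelihood test, Benjamini-Hochberg over all genes tested, called at adjusted p under 0.05). Lymph node and wild type entered a fit of 3 group means with 1 residual degree of freedom, and VQ_BM cells at or above and under 5% a fit with the library as a block. The SE is the log2 fold change over the root of the F statistic. The fits were tested on simulated counts. DESeq2 1.42.0, other scalings, filters, Jchain limits of 2% and 10%, thinning and leaving out libraries or cells were alternatives. Folds of summed counts have exact intervals, and for counts of genes at least 4-fold lower a prior count of 1 on average was added. Coordinates come from GENCODE vM21. Shares, intervals and figures were computed with Python 3.11.15, scipy 1.17.1 and matplotlib 3.10.9.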

Additional observations from a re-analysis of the deposited data

How the results depend on the processing

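Genes called between VQ lymph node and VQ bone marrow numbered 259 with edgeR, 17 with DESeq2, 161 with a Jchain limit of 2%, 34 after thinning to 500 UMIs and 107 with all cells. Between VQ_BM cells at or above and under 5% Jchain they numbered 258, against 57 with DESeq2, 167 with a limit of 10%, 108 after thinning and 14 with cells under 1000 UMIs left out. Without the replicate block, that is with the library not in the fit, 421 were called, among them the 258. The labels do not pair the lymph node or wild-type library with a VQ_BM library, and each is a single library, so no paired analysis was possible. Between VQ_BM and WT_BM 2478 were called, against 423 with DESeq2, 420 after thinning and 1310 with WT_BM cells lacking MHC class II only. The cause was not tested, except that thinning and the exclusion of cells leave fewer UMIs. Shares of cells with at least 3 listed genes fell with thinning by construction: to 500 UMIs, 8.82% of VQ_BM cells at or above 5% Jchain, 0% of those under 5% and 20% of WT_BM cells, and to 1000 UMIs, 58.6% of WT_BM cells. No called log2 fold change of a member changed sign. The Slpi ratio of WT_BM cells with over without MHC class II, 1.14, turned to 0.908 without the cell richest in Slpi, and the Prg2 ratio of VQ_BM over WT_BM cells at or above 5% Jchain was 0.579 and 1.61 with either VQ_BM replicate left out. In the lymph node comparison 89 of the members' alternative values kept their call, or stayed within 2 SE where a library was left out and no spread remained for a test, 2 lost it (Prg2 and Arhgdib with DESeq2), 1 gained it and 3 moved by more. Between the VQ_BM classes the numbers were 35, 1, 3 and 2. Single WT_BM and VQ_LN libraries, and 34600 UMIs in the VQ_BM cells at or above 5% Jchain, limit what can be resolved for members with under 10 UMIs.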

Other observations

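The WT_BM library also held 35 cells under 5% Jchain without 2 precursor markers, which enter no comparison. They carried the list at 4548 CPM, with Slpi at 1111 CPM in 14 cells, Prg2 at 796 CPM in 10 cells, Spon1 at 252 CPM in 7 cells and Arhgdib at 1090 CPM in 23 cells. At least 3 listed genes had a UMI in 17 of the 35 (48.6%, interval 31.4 to 66.0). They were shallow, with a median of 1187 UMIs, and had neutrophil markers at 20267 CPM and plasma cell markers at 20330 CPM, of which Jchain made 9599 CPM. Of 11 WT_BM cells at 2 to 5% Jchain, 9 at 2 to 4% held 108 UMIs of the list.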
